A study of Mus musculus with 12 samples.

Results

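Fibroblast growth factors (FGFs) are a family of small proteins, most of which are secreted, bind heparan sulfate at the cell surface and activate the receptor tyrosine kinases FGFR1 to FGFR4 on nearby cells. The 10 genes described here, *Fgf1*, *Fgf2*, *Fgf7*, *Fgf9*, *Fgf10*, *Fgf11*, *Fgf12*, *Fgf13*, *Fgf18* and *Fgf22*, were taken by their symbols from the 39017 genes of the deposited count table, and all 10 were found in it. They were measured by RNA sequencing of whole adrenals from 12 female mice aged 10 to 11 weeks, on a mixed sv129 and C57Bl/6 background, with 12 libraries counted as 1 per mouse.

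The 6 control mice (Ctrl) are titled as wild-type controls, but their genotype field gives *ASCre/+*, in which Cre is expressed from the *Cyp11b2* locus, the aldosterone synthase gene of the zona glomerulosa (zG), the outermost layer of the adrenal cortex. The 6 βCat-GOF mice carried *ASCre/+* together with *Ctnnb1fl(ex3)/+*, an allele that loses an exon under Cre and then makes a stabilized β-catenin, so by the genotype fields both groups carry Cre and differ in the *Ctnnb1* allele. The recombination depends on cells that are or were active at the *Cyp11b2* locus, while the RNA came from the whole gland with the zG, the zona fasciculata (zF), the medulla, the capsule and vessels in it. In such RNA, fewer cells of a type and less RNA per cell cannot be told apart. Libraries held between 13484675 and 25625494 counts on genes, so that 3 counts correspond to 0.117 to 0.222 CPM (a gene's share of the library's counts, on a common scale). In 3 cases the label of a library extends that of another in its group. The labels do not say whether the libraries of such a pair are from different animals. They are counted here as separate mice, and if a pair came from the same animal the p-values would be too small. The leading number of the labels is the same in the 6 Ctrl mice and occurs in none of the βCat-GOF mice, of which 5 share another number and 1 has its own, and whatever it stands for cannot be told apart from genotype. The question put to these genes was which ligands of FGFR2 can be detected in the gland, since *Fgfr2* itself is the FGF receptor gene that was higher in βCat-GOF adrenals, and whether any ligand gene differed with it.

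The 10 genes fall into groups by what their proteins are known to do. FGF1 and FGF2 have no classical signal peptide, leave cells by an unusual route and bind FGFR2 along with other FGF receptors, FGF1 binding all of them. FGF7, FGF10 and FGF22 are the FGF7 subfamily, typically made by stromal cells and read by the splice form of FGFR2 found on epithelia (FGFR2b). FGF9 and FGF18 are secreted factors that act mostly on the other splice forms (FGFR2c, and FGFR3). FGF11, FGF12 and FGF13 are FGF homologous factors, which stay inside the cell and bind voltage-gated sodium channels instead of being secreted as receptor ligands. In the adrenal, FGF signaling through FGFR2 is known for its part in the growth of the cortex during development. Counts per gene do not separate the splice forms of *Fgfr2*.

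On GRCm38 (mm10), *Fgf2* lies at chr3:37348346-37410108 (plus), *Fgf7* at chr2:126034658-126091185 (plus), *Fgf9* at chr14:58070547-58112720 (plus) and *Fgf10* at chr13:118669791-118792115 (plus). *Fgf11* lies at chr11:69796068-69801857 (minus), *Fgf12* at chr16:28160098-28753068 (minus), *Fgf13* at chrX:59062145-59568071 (minus), *Fgf18* at chr11:33117430-33147400 (minus) and *Fgf22* at chr10:79755076-79758596 (plus). Exons of *Fgf1*, *Fgf7*, *Fgf9*, *Fgf11*, *Fgf12*, *Fgf13* and *Fgf18* share no base with an exon of another gene in the GENCODE annotation used here. For *Fgf2*, 13.2% of exon bases are shared, most of them with the antisense gene *Nudt6*, which had 2548 counts in the 12 mice against 226 for *Fgf2*. For *Fgf22* 3.65% are shared with *Rnf126* and for *Fgf10* 2.67% with an antisense transcript, Gm16263. Whether the counting used the strand is not given in the sources used here, so reads from these stretches are not known to be separated.

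The mice differ in β-catenin, whose nuclear partners of the TCF/LEF family bind CTTTGA and CTTTGT. The 250 bases before the annotated start of each ligand gene with a promoter entry were therefore searched for these letters on both strands. The RefSeq promoter table (GRCm38.p6) held 9 of the 10 genes, with 15 windows in all. It held no entry for *Fgf1*, which was not searched. Of the 15 windows, 2 held a match, or 13.3%, against 27.6% of the 32851 windows of all genes. The matches were in the window of *Fgf7*, 226 bases before the start, and in 1 of the windows of *Fgf13*, 113 bases before it. The windows of *Fgf7* and *Fgf18* are printed 5′ to 3′ on the gene's strand because these are ligand genes with an unadjusted p under 0.05 below, with the match in capitals. *Fgf1* also had such a p and has no window to print. That of *Fgf7* covers chr2:126034408-126034657 (plus strand) and that of *Fgf18* chr11:33147401-33147650 (minus strand), and neither overlaps an exon.
*Fgf7*: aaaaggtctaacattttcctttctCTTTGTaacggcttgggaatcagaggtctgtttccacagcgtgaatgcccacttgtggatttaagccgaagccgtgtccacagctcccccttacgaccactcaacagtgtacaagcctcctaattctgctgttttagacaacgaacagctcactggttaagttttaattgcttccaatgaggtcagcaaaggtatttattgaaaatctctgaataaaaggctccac
*Fgf18*: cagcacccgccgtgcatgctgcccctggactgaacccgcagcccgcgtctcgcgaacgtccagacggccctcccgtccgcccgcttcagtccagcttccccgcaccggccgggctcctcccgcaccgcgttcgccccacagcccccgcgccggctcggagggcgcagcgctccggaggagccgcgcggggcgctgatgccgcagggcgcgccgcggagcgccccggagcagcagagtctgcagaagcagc
The *Fgf18* window holds 77.2% G and C bases and no match, and the *Fgf7* window 43.6%. A match of these letters describes the sequence and was not tested as a binding site, and a window without one says nothing about the factor.

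Of the 7 genes among the 10 whose proteins bind FGFR2 (*Fgf1*, *Fgf2*, *Fgf7*, *Fgf9*, *Fgf10*, *Fgf18* and *Fgf22*), 5 had more than 3 counts in all 12 mice. These were *Fgf1*, *Fgf9*, *Fgf7*, *Fgf10* and *Fgf18*. *Fgf2* passed 3 counts in 11 of 12 mice, with 2 counts in the exception, βCat-GOF mouse 4, and its highest count was 36. With at least 10 counts in every mouse as the bar, 2 of the 7 remained, *Fgf1* and *Fgf9*, since the lowest counts of *Fgf7*, *Fgf10* and *Fgf18* were 9, 8 and 5. *Fgf22* passed 3 counts in 3 of 12 mice, had 0 counts in 4 and 22 counts over all 12 libraries, so it was close to the limit of detection at this depth. The 3 FGF homologous factor genes passed 3 counts in every mouse, so 8 of the 10 genes did. Outside the 10 genes, *Fgf3* and *Fgf20*, described below, also had more than 3 counts in all 12 mice. Their lowest counts were 9 and 17, so *Fgf20* also passed the bar of 10 counts in every mouse.

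Levels of different genes were compared per length, as RPKM, the counts scaled to the length of a gene's exons and to the size of the library. *Fgf1* was the highest of the 10 genes, at 8.76 ± 2.55 RPKM (SD, n = 12 mice), followed by *Fgf9* at 4.35 ± 0.88 RPKM and *Fgf11* at 1.90 ± 0.37 RPKM. *Fgf1* was above *Fgf9* within each of the 12 mice, though their ranges over mice overlapped. *Fgf9* was above *Fgf11*, and *Fgf11* above *Fgf18* at 0.58 RPKM, in 12 of 12 mice with no overlap. Below these the order is not resolved by the spread between mice. *Fgf18* was above *Fgf13* (0.27 RPKM) in 9 of 12 mice, *Fgf13* above *Fgf7* (0.26) in 5, *Fgf7* above *Fgf12* (0.23) in 7 and *Fgf12* above *Fgf10* (0.23) in 6. *Fgf10* was above *Fgf2* (0.13) in 10 of 12 mice and *Fgf2* above *Fgf22* (0.042) in 9.

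**Figure D1:**
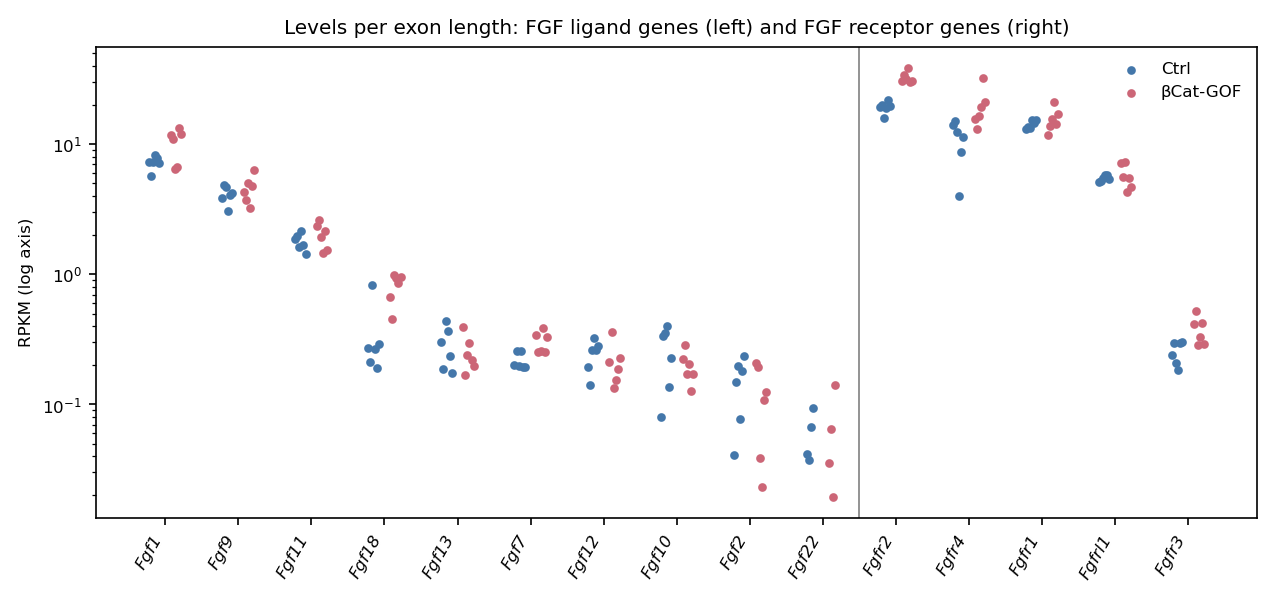
RPKM (log axis) of the 10 FGF ligand genes, left of the line, and the 5 receptor genes, right of it, in each of 6 Ctrl (blue) and 6 βCat-GOF (red) mice, 1 point per mouse. *Fgf1*, *Fgf9* and *Fgf11* stand above the other ligand genes, and values of 0, which occurred for *Fgf22* in 4 mice, are left out of the log axis.

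The summed level of the 7 FGFR2 ligand genes among the 10 was thus mostly that of 2 genes. FGF genes outside the 10 are not in this sum, among them *Fgf20* (1.49 RPKM) and *Fgf3* (0.79 RPKM), which are described below. *Fgf1* and *Fgf9* together made up between 85.4% and 94.6% of the sum in every mouse. *Fgf1* alone gave 58.6% ± 6.19 of it in Ctrl and 62.1% ± 7.38 in βCat-GOF mice, and *Fgf9* 33.4% ± 5.50 and 28.4% ± 5.75 (SD, n = 6 each). The sum was 12.4 ± 0.73 RPKM in Ctrl mice, between 11.6 and 13.7, and 16.3 ± 3.41 RPKM in βCat-GOF mice, between 11.6 and 19.99. Mice 3 and 4 of the βCat-GOF group, the ones with the lowest *Fgf1*, had the lowest sums of that group, and the sums of the other 4 were 16.01 to 19.99 RPKM. Per length, *Fgfr2*, *Fgfr4* and *Fgfr1* had higher means than each of the 10 ligand genes. *Fgfr2* had 25.9 RPKM, *Fgfr4* 15.3, *Fgfr1* 14.9, *Fgfrl1* (a receptor without a kinase) 5.62 and *Fgfr3* 0.32 (means of 12 mice).

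Between the genotypes, none of the ligand genes passed the test. Of the 10 genes, 9 passed edgeR's filter on low counts and were tested (all but *Fgf22*), and 0 of the 9 had an adjusted p under 0.05 in edgeR's quasi-likelihood test, adjusted over 14953 genes, of which 3.68% were called (2.16% as higher and 1.52% as lower in βCat-GOF mice). With the study's added limits on fold and base mean 0 of the 9 were called too, against 2.35% of all genes (1.48% higher and 0.869% lower). DESeq2, run as an alternative, also called 0 of them, against 7.57% of the 16438 genes it gave an adjusted p. At an unadjusted p under 0.05 there were 3, *Fgf18*, *Fgf1* and *Fgf7*, all with higher means in βCat-GOF mice, against 20.4% of all genes tested in either direction, 9.73% with a higher and 10.7% with a lower mean. The log2 fold change (βCat-GOF over Ctrl) was above 0 for 5 and below 0 for 4 of the 9 genes, with a median of 0.14, against 0.000105 over all genes tested. For 0 of the 9 did the values of the 2 groups separate without overlap, against 1.61% of all genes that separated upward and 1.16% that separated downward.

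**Figure D2:**
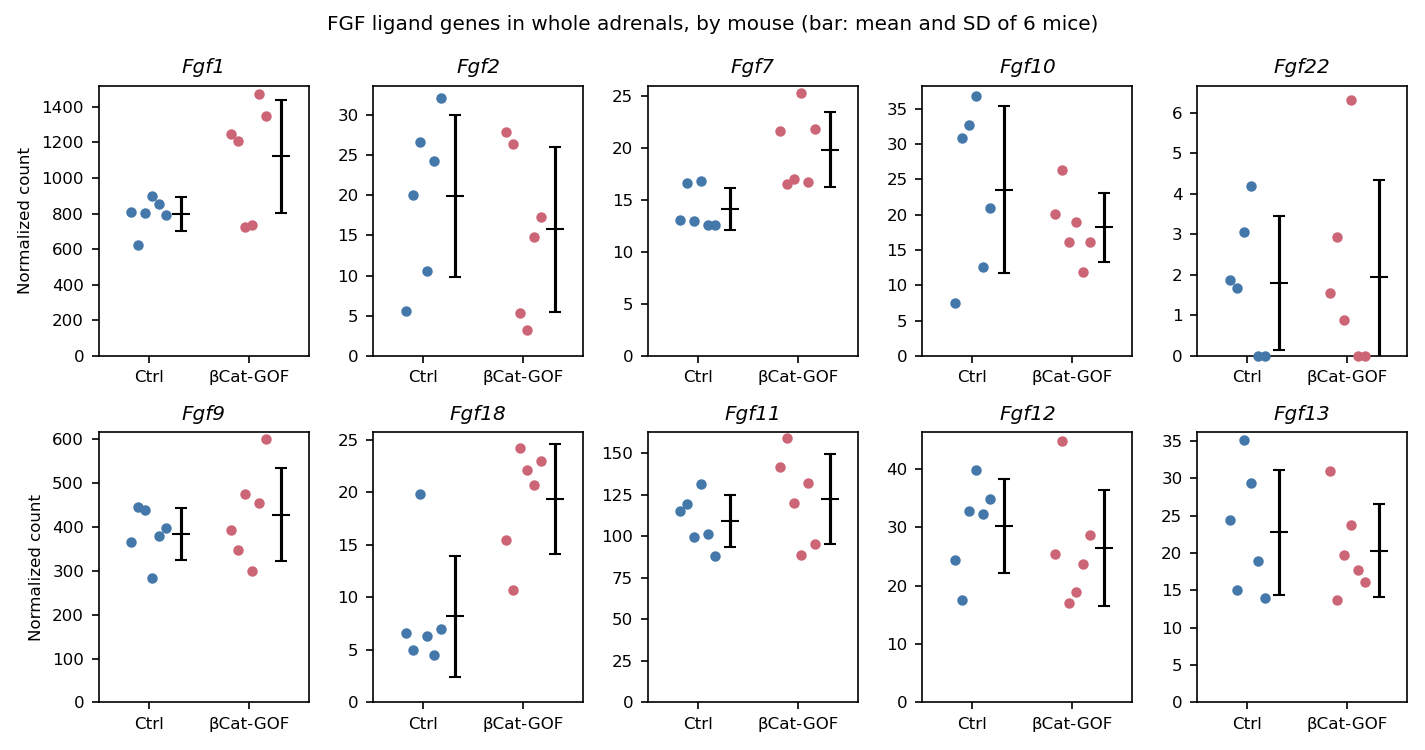
Normalized counts of the 10 FGF ligand genes in 6 Ctrl (blue) and 6 βCat-GOF (red) mice, 1 point per mouse, with the mean and SD of each group beside them in black (bars that would pass below 0 end there). Each panel has its own axis from 0, and the groups overlap in all 10 panels.

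*Fgf1*, the broad FGF receptor ligand and the most abundant of the 10 (chromosome 18, 38838673 to 38929472 on the minus strand), had normalized counts (counts divided by the library's size factor) between 623 and 900 in Ctrl mice (median 807) and between 727 and 1475 in βCat-GOF mice (median 1228). Mice 1, 2, 5 and 6 of the βCat-GOF group had 1249, 1206, 1475 and 1348 normalized counts, above every Ctrl mouse, while mice 3 and 4 had 727 and 734, inside the Ctrl range. The group means were 797 ± 94.2 and 1123 ± 318 (SD over 6 mice each). On the log2 scale βCat-GOF mice were higher by 0.49 (SE 0.17), with an adjusted p of 0.137 in edgeR's quasi-likelihood test and 0.0722 in DESeq2. Its 95% interval of 0.12 to 0.86 on the log2 scale is not adjusted for the number of genes tested. Leaving out single mice moved its log2 fold change between 0.41 and 0.59, and the adjusted p stayed between 0.0641 and 0.26 (edgeR).

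The 2 βCat-GOF mice with low *Fgf1* were also the 2 with the lowest zG marker level of their group. The summed normalized count of 5 zG marker genes (*Cyp11b2*, *Agtr1b*, *Vsnl1*, *Dab2* and *Hsd3b6*) was 22710 and 23850 in mice 3 and 4 and between 30606 and 44497 in the other 4, against 19654 to 27292 in Ctrl mice. Most of this sum was *Dab2*, with means of 13477 in Ctrl and 22811 in βCat-GOF mice, where the sums averaged 22051 and 33107. Of these 5 markers 3 rose in βCat-GOF mice (*Agtr1b*, *Vsnl1* and *Dab2*, adjusted p under 0.05, edgeR, with 2.16% of all genes called as higher), or 2 when Ctrl mouse 4, 5 or 6 was left out. *Cyp11b2* had a log2 fold change of -0.18 (adjusted p = 0.82, edgeR) and *Hsd3b6* of 0.15 (adjusted p = 0.91, edgeR). Across the 12 mice, after subtraction of the group means, log2 CPM of *Fgf1* and the mean log2 CPM of the 5 zG markers had a Pearson r of 0.81 and a Spearman rho of 0.58, and r was 0.60 without the 2 mice farthest from the median of the zG level. The same 2 mice also had the lowest sums of the 6 capsule markers in their group (5179 and 6408, against 6526 to 11167 in the other 4) and the highest sums of the 4 macrophage markers (2622 and 2828, against 1793 to 2264). Their sums of the 6 medulla markers were the highest of the group too (137294 and 190131, against 98602 to 134642). By mean log2 CPM, the measure used for the correlations, the capsule and medulla rankings differed. For the capsule, βCat-GOF mouse 6 (4.85) was below mouse 4 (5.04). For the medulla, mouse 3 (8.96) was below mice 1 and 2 (9.11 each). The zG and macrophage rankings of mice 3 and 4 were the same by either measure. For the capsule markers r with *Fgf1* was 0.58, rho 0.37, and r 0.33 without the 2 farthest mice. For the zF markers r was -0.42, rho -0.27, and r -0.65 without the 2 farthest mice. These are among 90 such correlations (9 genes with 10 marker lists) and are given as a description. All measures come from the same libraries, and the part of zG, zF, capsule, medulla or macrophage content in the *Fgf1* values was not tested.

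**Figure D3:**
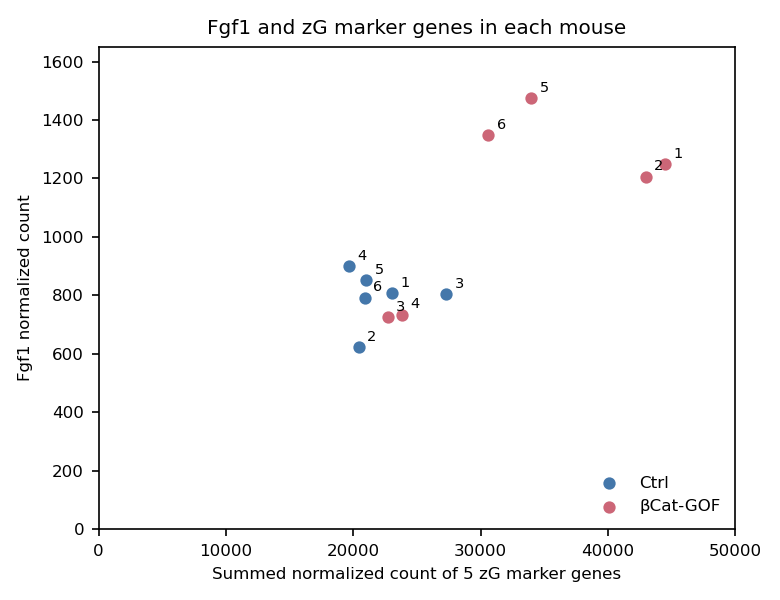
Normalized count of *Fgf1* against the summed normalized count of the 5 zG marker genes in each Ctrl (blue) and βCat-GOF (red) mouse, with the mouse's number beside its point. *Dab2* made up most of the mean sum in both groups. βCat-GOF mice 3 and 4, with 727 and 734 for *Fgf1*, lie among the Ctrl mice on both axes, and the other 4 βCat-GOF mice lie above and to the right.

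*Fgf2*, the other ligand without a signal peptide, was low and variable. It had between 5.62 and 32.1 normalized counts in Ctrl mice (median 22.1) and between 3.16 and 27.8 in βCat-GOF mice (median 16.004). Both groups spread over most of the same range, with 2 βCat-GOF mice, 3 and 4, below every Ctrl mouse. Its log2 fold change was -0.29 (SE 0.48, adjusted p = 0.786, edgeR), and its 95% interval of -1.32 to 0.75 corresponds to a fold between 0.40 and 1.68. Within groups, *Fgf2* was higher in mice with more zG marker RNA (r = 0.57, rho = 0.69, and r = 0.73 without the 2 farthest mice). It was lower in mice with more macrophage marker RNA (r = -0.69, rho = -0.64, and r = -0.79 without them). Its r was of like size with the capsule markers (r = 0.63, rho = 0.56, and r = 0.45 without the 2 farthest mice). The same held for the zF markers, with the opposite sign (r = -0.56, rho = -0.45, and r = -0.66 without the 2 farthest mice).

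In the FGF7 subfamily, *Fgf7* was the least variable member. *Fgf7* had between 12.6 and 16.8 normalized counts in Ctrl mice (median 13.03) and between 16.6 and 25.3 in βCat-GOF mice (median 19.3). Of the βCat-GOF mice 4 were above every Ctrl mouse and the other 2 were inside the top of the Ctrl range. The means were 14.1 ± 2.04 and 19.8 ± 3.61 (SD, n = 6 each) and the log2 fold change was 0.47 (SE 0.21, adjusted p = 0.221, edgeR; 0.329, DESeq2). The counts behind it were 9 to 28 per library.

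*Fgf10* had between 7.49 and 36.8 normalized counts in Ctrl mice (median 25.9) and between 11.8 and 26.3 in βCat-GOF mice (median 17.5). All 6 βCat-GOF values lay inside the Ctrl range, and the log2 fold change was -0.38 (SE 0.36, adjusted p = 0.591, edgeR). From mouse to mouse its level varied with marker genes of both the medulla and adipocytes. After subtraction of group means over 12 mice, r was 0.76 and rho 0.64 for the medulla, with r = 0.46 without the 2 mice farthest from the median, and r was 0.63 and rho 0.64 for adipocytes, with r = 0.68 without the 2 farthest. For adipocytes the values were alike for *Fgf7* (r = 0.64, rho = 0.59, and r = 0.57 without the 2 farthest) and *Fgf13* (r = 0.62, rho = 0.64, and r = 0.44 without them). The sum of the 6 medulla markers (such as *Th* and *Pnmt*, enzymes of catecholamine synthesis) varied between 77767 and 237567 in Ctrl mice and between 98602 and 190131 in βCat-GOF mice, and none of the 6 was called. The sum of the 6 adipocyte markers was 948 to 4509 in Ctrl and 1435 to 3348 in βCat-GOF mice. The part of either in *Fgf10* was not tested. *Fgf22* had between 0 and 4.20 normalized counts in Ctrl and between 0 and 6.33 in βCat-GOF mice, and was not tested.

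*Fgf9*, the second most abundant ligand gene, had between 283 and 446 normalized counts in Ctrl mice (median 388) and between 299 and 599 in βCat-GOF mice (median 423). In the βCat-GOF group 3 mice lay inside the Ctrl range and 3 above it. The means were 385 ± 59.5 and 428 ± 106 (SD, n = 6 each), with a log2 fold change of 0.14 (SE 0.16, adjusted p = 0.661, edgeR). The 95% interval of -0.20 to 0.48 leaves room for a fold of up to 1.396.

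*Fgf18* had the largest fold change of the 9 genes tested. It had between 4.49 and 19.8 normalized counts in Ctrl mice (median 6.43) and between 10.7 and 24.2 in βCat-GOF mice (median 21.4). The Ctrl mice other than mouse 3 had 4.49 to 6.98 normalized counts, below every βCat-GOF mouse, while Ctrl mouse 3 had 19.8, inside the βCat-GOF range. The means were 8.19 ± 5.77 and 19.4 ± 5.202 (SD, n = 6 each). This difference of 1.18 on the log2 scale (SE 0.37) did not pass (adjusted p = 0.0958, edgeR; 0.0545, DESeq2). Without Ctrl mouse 3 the log2 fold change was 1.71 (SE 0.29, adjusted p = 0.00645, edgeR). The call therefore depends on a single Ctrl mouse, 1 of the 3 whose label extends another's, and on libraries in which the gene had 5 to 27 counts.

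Among the intracellular FGF homologous factors, *Fgf11* had between 88.0 and 131 normalized counts in Ctrl mice (median 108) and between 88.6 and 159 in βCat-GOF mice (median 126). The groups overlapped over most of their range, with a log2 fold change of 0.16 (SE 0.17, adjusted p = 0.632, edgeR). *Fgf12* had 17.5 to 39.9 normalized counts in Ctrl and 17.0 to 44.8 in βCat-GOF mice, with a log2 fold change of -0.19 (SE 0.27, adjusted p = 0.741, edgeR). *Fgf13* had 14.0 to 35.1 and 13.7 to 30.9, with a log2 fold change of -0.18 (SE 0.29, adjusted p = 0.776, edgeR). None of the 3 had an unadjusted p under 0.05. *Fgf11* was lower in mice with more zF marker RNA (r = -0.76, rho = -0.77, and r = -0.75 without the 2 farthest of 12 mice) and in mice with more endothelial marker RNA (r = -0.75, rho = -0.65, and r = -0.59 without them). *Fgf12* was higher in mice with more zG marker RNA (r = 0.74, rho = 0.60, and r = 0.51 without them). All of these are within groups and a description among the same 90 correlations, of which only a part is given in the text.

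**Figure D4:**
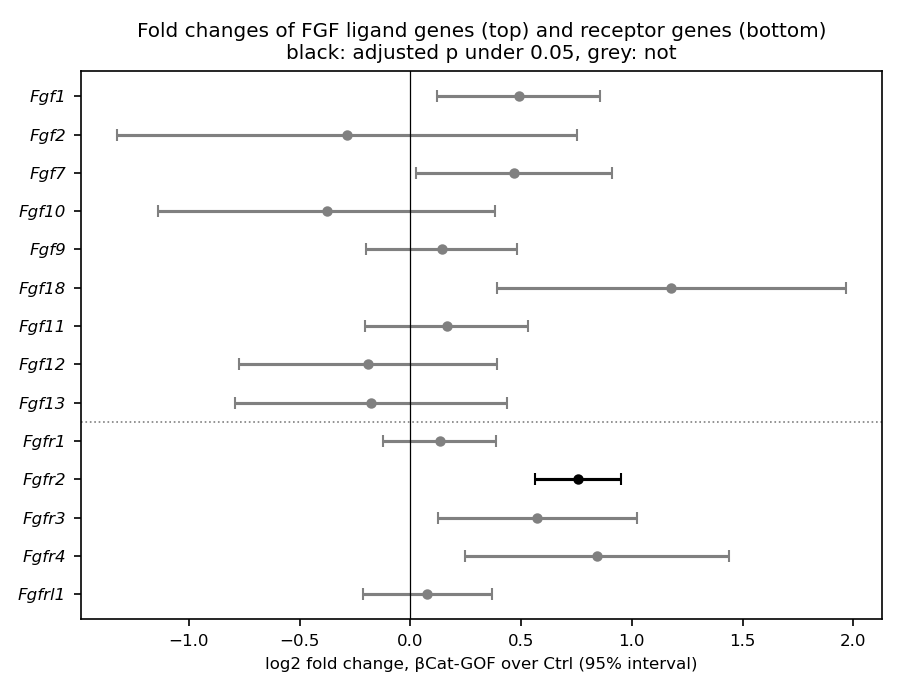
log2 fold changes (βCat-GOF over Ctrl) with 95% intervals for the 9 FGF ligand genes tested, above the dotted line, and the 5 receptor genes, below it (edgeR, 6 mice in each group). *Fgfr2* is the 1 gene in black (adjusted p under 0.05), while the intervals of *Fgf1*, *Fgf7* and *Fgf18* lie above 0 without an adjusted p under 0.05.

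The receptor genes are the other side of this pathway. *Fgfr2* had between 3312 and 4488 normalized counts in Ctrl mice (median 4026) and between 6216 and 7913 in βCat-GOF mice (median 6539). Every βCat-GOF mouse was above every Ctrl mouse, and *Fgfr2* rose by a log2 fold change of 0.76 (SE 0.091, adjusted p = 0.00066, edgeR). *Fgfr2* was the only 1 of the 5 receptor genes called with edgeR (3.68% of all genes tested were), while 3 of the 5 had an unadjusted p under 0.05 (20.4% of all genes tested did). *Fgfr4* had a log2 fold change of 0.84 (adjusted p = 0.112, edgeR) and was called by DESeq2 (adjusted p = 0.0353). The log2 fold change of *Fgfr3* was 0.57 (adjusted p = 0.146, edgeR), that of *Fgfr1* 0.13 (adjusted p = 0.568) and that of *Fgfrl1* 0.08 (adjusted p = 0.793).

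Each abundant ligand was also set against *Fgfr2* within the same library, a measure chosen after the values were seen. The log2 ratio of *Fgf9* to *Fgfr2* normalized counts was between -3.80 and -2.92 in Ctrl mice (mean -3.38 ± 0.31) and between -4.73 and -3.42 in βCat-GOF mice (mean -4.01 ± 0.46). The difference of the means was -0.63, with 5 of 6 βCat-GOF mice below every Ctrl mouse. The log2 ratio of *Fgf1* to *Fgfr2* was -2.32 ± 0.23 in Ctrl and -2.64 ± 0.55 in βCat-GOF mice, a difference of -0.32. The groups overlapped for this ratio, and βCat-GOF mice 3 and 4 had the lowest values, -3.20 and -3.43. These ratios are a description with no test, since the rise of *Fgfr2* and the smaller difference of each ligand, known when the ratios were chosen, fix their direction.

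**Figure D5:**
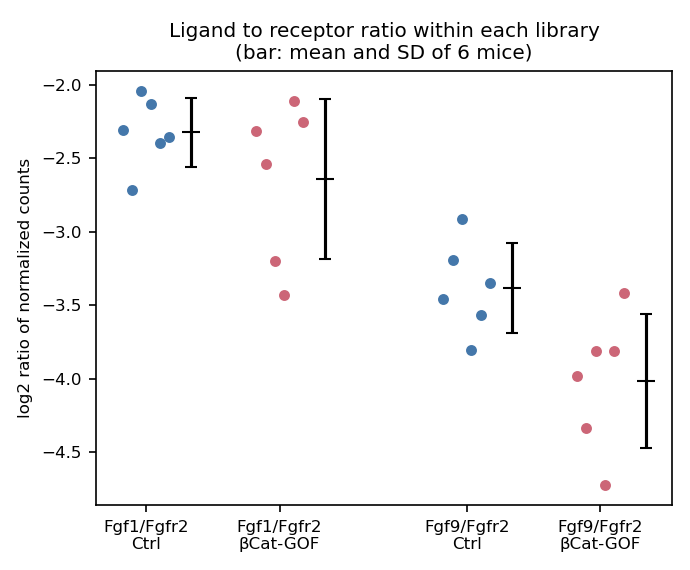
log2 ratio of the normalized counts of *Fgf1* and of *Fgf9* to those of *Fgfr2* in each of 6 Ctrl (blue) and 6 βCat-GOF (red) mice, 1 point per mouse, with the mean and SD of each group in black. The *Fgf9* ratio is lower in 5 of 6 βCat-GOF mice than in every Ctrl mouse, and the *Fgf1* ratio overlaps between the groups.

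Of the 12 FGF genes of the mouse that are not among the 10, 3 passed the filter (*Fgf3*, *Fgf14* and *Fgf20*). With edgeR 0 were called and 2 had an unadjusted p under 0.05 (20.4% of all genes tested did). *Fgf20*, a secreted relative of FGF9, had 27.5 ± 17.2 normalized counts in Ctrl and 72.6 ± 40.6 in βCat-GOF mice (SD, n = 6 each), with a log2 fold change of 1.39 (SE 0.44, adjusted p = 0.104, edgeR) and a call by DESeq2 (adjusted p = 0.0224). Its groups overlapped, and 12.0% of its exon bases are shared with *Micu3*. *Fgf14*, the remaining FGF homologous factor, had a log2 fold change of -0.84 (adjusted p = 0.234, edgeR). Per length, *Fgf20* (1.49 RPKM) ranked 4 and *Fgf3*, a known ligand of FGFR2b, ranked 5 (0.79 RPKM) among all 22 FGF genes by the mean of the 12 mice. Their order differed between the groups. In Ctrl mice *Fgf3* had 0.98, *Fgf20* 0.82 and *Fgf18* 0.34 RPKM, and in βCat-GOF mice *Fgf20* had 2.17, *Fgf18* 0.81 and *Fgf3* 0.60. *Fgf4*, *Fgf6* and *Fgf8* had 0 counts in all 12 mice, which allows up to 0.117 to 0.222 CPM. *Fgf3*, *Fgf4*, *Fgf6* and *Fgf8* were named after their values were seen.

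The co-receptor list (Klotho proteins, FLRT membrane proteins and FGF-binding proteins) had 4 of 8 genes tested, and 0 were called with edgeR, had an unadjusted p under 0.05 or were called by DESeq2. The median log2 fold change was -0.26, with *Flrt3* at -0.46 (adjusted p = 0.293) and *Flrt1* at -0.53 (adjusted p = 0.363). Of the Klotho genes, *Kl* and *Klb* averaged 2.74 and 5.12 normalized counts over the 12 mice and were below the filter. Of 21 genes that relay the receptor signal (adaptors and the MAP kinase chain), 21 were tested and 0 were called with edgeR or DESeq2. Their median log2 fold change was 0.09, and 3 had an unadjusted p under 0.05 (20.4% of all genes tested did). Among them *Ptpn11*, which encodes the phosphatase SHP2, had a log2 fold change of 0.20 (adjusted p = 0.149, edgeR).

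Feedback genes and targets of the pathway held called genes. Of 12 genes tested, 2 rose and 0 fell (edgeR, with 2.16% of all genes called as higher), and the median log2 fold change was 0.40. For 6 of the 12 the unadjusted p was under 0.05, all with a higher mean, against 9.73% of all genes tested. *Etv4*, an ETS transcription factor known as a target of FGF signaling, rose from 20.7 ± 8.18 to 89.3 ± 22.1 normalized counts (SD, n = 6 each), by 2.10 on the log2 scale (SE 0.29, adjusted p = 0.00204, edgeR) with no overlap between groups. *Etv5*, its close relative, rose by a log2 fold change of 0.77 (SE 0.17, adjusted p = 0.0267, edgeR), with overlapping groups. The *Etv5* call was lost on leaving out Ctrl mouse 4, Ctrl mouse 6 or βCat-GOF mouse 5, which each left 1 call in the list. DESeq2 called 5 of the 12 as higher, against 7.57% of all genes that it called in either direction.

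Of 13 genes for voltage-gated sodium channel subunits, the partners of the FGF homologous factors, 9 were tested, 1 rose and 0 fell (edgeR), against 2.16% of all genes called as higher and 1.52% as lower. An unadjusted p under 0.05 was found for 4 (20.4% of all genes), of which 3 were lower (10.7% of all genes), DESeq2 called 1 as lower, and the median log2 fold change was -0.16. *Scn2b*, an auxiliary subunit, rose from 165 ± 29.1 to 288 ± 82.5 normalized counts, by 0.80 on the log2 scale (SE 0.20, adjusted p = 0.0384, edgeR) with no overlap. No sodium channel subunit remained called as higher when any 1 of Ctrl mice 1, 2, 4, 5 and 6 or βCat-GOF mice 2 and 5 was left out.

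Among the marker lists of the other cells in the gland, edgeR called 0 genes for the capsule (6 tested), the medulla (6), the endothelium (5), smooth muscle and pericytes (4), nerve sheath (3 of 4 tested), adipocytes (5 of 6 tested) and the X-zone, an inner layer of the cortex in young female mice (2 tested). An unadjusted p under 0.05 (20.4% of all genes tested) was found for 1 gene each of the capsule, endothelium and adipocytes, for 2 of smooth muscle and pericytes and for 0 of the others. DESeq2 called 2 genes of smooth muscle and pericytes and 0 in the other 6 lists, against 7.57% of all genes. Of the 4 zF markers 1 rose and of the 4 macrophage markers 2 fell (edgeR, with 2.16% of all genes called as higher and 1.52% as lower). These counts ranged from 0 to 2 and from 0 to 1 when single mice were left out. The summed level of the X-zone markers was the most uneven, from 4999 to 107512 normalized counts in Ctrl and from 2188 to 126181 in βCat-GOF mice. Each marker gene passed 3 counts in some mouse, so the RNA held transcripts of all 10 lists, and the ligand genes cannot be assigned to a cell type from these libraries.

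The genes whose mouse-to-mouse variation was most like a ligand's were named by Pearson r of log2 CPM after subtraction of the group means, over 12 mice and 11431 genes with a base mean above 100. For *Fgf1* these were *Ecm2* (r = 0.90), *Abi3bp* (0.86) and *Ogn* (0.85), which all encode proteins of the extracellular matrix. Their Spearman rho was 0.62, 0.78 and 0.76. When group means were not subtracted, none of them was among the 3 genes closest to *Fgf1*, which were then *Smpx*, *Zswim6* and *Cdh6*. For *Fgf9* they were *Nol11* (0.93), *Sdad1* (0.91) and *Clcn5* (0.89), and for *Fgf18* *Rpl3* (0.94), *Smu1* (0.93) and *Taf9* (0.92). For *Fgf10* they were *Tmem28* (0.94), *Ramp1* (0.88) and *Pcdh15* (0.88), for *Fgf7* *Foxk1* (0.87), *Tnfaip3* (0.85) and *Arrdc2* (0.84), and for *Fgf2* *Fndc3a* (0.92), *Etv1* (0.92) and *Nudt21* (0.91). For *Fgf11* they were 3110052M02Rik (0.92), *Dnah7b* (0.92) and *Mxd1* (0.91), for *Fgf12* *Taf1d* (0.86), *Rsrc2* (0.85) and *Sec11c* (0.84), and for *Fgf13* *Ntan1* (0.86), *Pafah1b3* (0.86) and *Lgals1* (0.85). These are the highest of 11431 values from 12 libraries, and the genes share those libraries and their cell make-up. Among the ligand genes themselves, the closest pair was *Fgf1* and *Fgf12* (r = 0.66, rho = 0.50, 12 mice).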

How the data were processed

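Per the labels and the study's methods, RNA (TruSeq mRNA kit) from 12 whole adrenals was sequenced, and the authors aligned reads to mm10 with STAR, counted them per gene with featureCounts 1.4.4 and used DESeq2 1.6.3. The authors deposited raw counts for 39017 genes, used for every test, and a signal table of the same counts divided by size factors, used here for gene symbols. No column was left unmapped (0). The annotation release and strandedness are not given in the sources used here.

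Counts were tested with edgeR 4.0.16 in R 4.3.3 (TMM, filterByExpr, quasi-likelihood test, two-sided, Benjamini-Hochberg adjustment over 14953 genes, call at an adjusted p under 0.05). SE is the size of the log2 fold change divided by the square root of F. Normalized counts are the counts after division by median-of-ratios factors (DESeq2). RPKM used TMM-scaled totals and the union of exons (GENCODE M21, GRCm38). Log2 CPM used a prior count of 2. Values rest on 12 libraries of 13484675 to 25625494 counts, and p-values measure the spread between these mice. Limits from 3 counts cover counting error only.

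On simulated counts for this comparison, edgeR recovered 35 of 100 genes changed 1.5-fold and 69 of 100 changed 2-fold, with 7 false calls among 14823 genes. On the same counts DESeq2 recovered 56 and 79 of 100, with 37 false calls among 14953 genes. The changed genes were drawn from genes with base means above those of *Fgf2*, *Fgf7* and *Fgf18*, so the recovery does not describe genes as low as these.

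Alternatives were DESeq2 1.42.0, its size factors in edgeR, no filter, at least 10 counts in every mouse, adjusted p under 0.1, the study's limits (fold above 1.4, base mean above 100), 1 surrogate variable (sva 3.50.0), the fit without 3 mice (those with a label that extends another's), without 1 βCat-GOF mouse (the one with a different leading number), and without each mouse in turn. Ligand to *Fgfr2* ratios were added after the data were seen, as a description. The members and lists were chosen with earlier results of these data known.

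Genes named are the 10 members, the receptors, up to 4 called genes (or the 2 smallest p) per list, and the 3 genes most like each member, and 1 gene that this rule names is not reported here. Promoter windows came from RefSeq. Figures used matplotlib 3.10.9.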

Additional observations from a re-analysis of the deposited data

Results flagged for a closer look

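*Fgf18* in Ctrl mouse 3 lay far from the other Ctrl mice, at 19.8 normalized counts against 6.98 for the nearest. This gap is 0.837 of the group's range, above Dixon's 95% critical value for 6 samples. Without that mouse the log2 fold change of *Fgf18* was 1.71 (SE 0.29, adjusted p = 0.00645, edgeR). By chance about 1 in 20 groups would pass this limit, and 30 groups were examined, of which 1 passed.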

How the results depend on the processing

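No paired analysis was possible because the labels give numbers whose meaning is not stated and no replicate numbers shared between the groups. The count of ligand genes called as higher was 1 without the 3 mice whose label extends another's, 1 at an adjusted p under 0.1, and 0 to 1 when single mice were left out (1 without Ctrl mouse 3); in each case the number called as lower was 0. *Fgf18* had a log2 fold change of 1.81 without the 3 mice (adjusted p = 0.0161, edgeR) and 1.05 to 1.71 without single mice. With 1 surrogate variable *Fgf2* turned to 0.27 and *Fgf10* to 0.0038. The other 6 ligand genes tested kept their direction and stayed uncalled in every alternative run. *Fgfrl1* turned to -0.0080 without the 3 mice and to -0.0070 without βCat-GOF mouse 3 (-0.0070 to 0.15 over single mice), and *Fgfr4* (0.85) was called by DESeq2.

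Other FGF genes called as higher were 1 by DESeq2, 1 with the surrogate variable and 0 to 1 without single mice (1 without Ctrl mouse 3). Receptors called as higher were 2 by DESeq2. Relay genes called as higher were 0 to 1 without single mice (1 without βCat-GOF mouse 4). Feedback genes called as higher were 5 by DESeq2, 4 with the surrogate variable, 1 without the 3 mice, 1 without the mouse with another number, 1 at the study's limits and 1 to 3 without single mice. Sodium channel genes called as higher were 0 without the 3 mice, 0 without the mouse with another number and 0 to 1 without single mice. Those called as lower were 1 by DESeq2, 2 without the 3 mice and 0 to 1 without single mice (1 without Ctrl mouse 1 or βCat-GOF mouse 1). The cause of these changes was not tested. At 10 counts in every mouse 5 of the 10 genes were detected, *Fgf1*, *Fgf9* and the 3 FGF homologous factors. The order of levels put 2 genes at another rank with the longest transcript, 2 in Ctrl mice alone and 2 in βCat-GOF mice alone. Of the 27 most alike genes 7 were shared when group means were not subtracted. The *Fgf9* ratio differed by -0.54 without the 3 mice, and by -0.75 to -0.49 without single mice.

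At 5 to 28 counts per library, as for *Fgf7* and *Fgf18*, counting noise is large. The simulated recovery by edgeR at 1.5-fold was 35 of 100 for genes with higher base means than *Fgf2*, *Fgf7* and *Fgf18*. Recovery at their level was not simulated. Uncalled ligand genes are therefore not shown to be equal between the genotypes.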
